A study of Mus musculus with 21 samples.

Results

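The genes described here are 8 transcription factors that set or hold the choice between the CD4 and the CD8 T cell lineage: Zbtb7b, Runx1, Runx3, Gata3, Tox, Eomes, Tbx21 and Bcl11b. They were taken by gene name, and all 8 were found among the 12994 genes of the table. The study measured CD4+ T cells (labelled LT4) and CD8+ T cells (LT8) sorted from the spleen of female C57BL6/J mice raised in an enriched environment (EE) or a standard environment (SE). EE mice were moved at weaning, 4 weeks after birth, into large cages (9120 cm2, 12 to 15 mice) with running wheels, tunnels and toys for 4 weeks, and SE mice lived in cages of 666 cm2 without objects, with 5 to 6 mice in each. There were 6 CD4+ EE, 5 CD4+ SE, 6 CD8+ EE and 4 CD8+ SE samples from 12 mice, and 9 of the mice gave both populations. No other genetic or drug treatment is named for any of the 4 groups. The labels state that the mice of each environment came from the same cage, so an effect of housing cannot be told apart from one of the cage.

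In the thymus, a cell that carries both coreceptors keeps one of them. Zbtb7b (ThPOK), a zinc-finger repressor, commits the cell to the CD4 helper fate, with Gata3 and Tox acting upstream of it. Runx proteins, chiefly Runx3, silence Cd4 and Zbtb7b and set the CD8 cytotoxic fate, and the Runx and ThPOK programs repress each other. Mature T cells keep much of this pattern, and the T-box factors Eomes and Tbx21 (T-bet) then drive cytotoxic and memory genes in CD8+ cells. Bcl11b is a zinc-finger factor that holds T cell identity in both lineages.

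Values are normalized counts, that is counted RNA molecules (unique molecular identifiers, UMI) divided by the sample's size factor, so that 1 molecule is worth 0.791 to 1.26. The samples held 145546 to 221454 molecules. The sort markers followed the labels. Cd4 was 42.7 to 85.8 in the CD4+ samples and 0 to 0.966 in the CD8+ samples, and Cd8b1 was 1.26 to 9.15 and 177 to 243. Some libraries stood apart from the rest. The summed level of 8 B-cell markers, among them Cd79a, Ms4a1, Cd74, H2-Aa and Ighm, was 138 to 365 in 10 CD4+ samples but 36.0 in CD4+ SE replicate 1, near the 34.8 to 60.9 of 9 CD8+ samples and below the 106 of CD8+ EE replicate 6. Red-cell RNA summed to 581 in CD8+ EE replicate 6 and 1033 in CD8+ SE replicate 3, against 0 to 26.7 elsewhere. Both Cd8a and Cd8b1 were detected, at low level, in 5 of the 11 CD4+ samples (EE replicates 5 and 6, SE replicates 1, 4 and 5). By the purity rule in the study's methods, CD4 samples in which CD8a and CD8b were not zero were left out, but these samples are in the deposited table and were kept in the main comparison. Without them the members that passed between CD4+ and CD8+ cells were Zbtb7b, Runx1, Runx3, Eomes and also Gata3. The same 4 members passed between CD4+ and CD8+ cells without CD4+ SE replicate 1 and without the 2 CD8+ samples rich in red-cell RNA, and values without these libraries are given where a call changed.

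The members whose 2 populations did not overlap were Zbtb7b and Runx3, and the windows around their RefSeq transcription starts are shown for this reason (assembly GRCm38.p6, 250 bases before to 50 after the start, 5′ to 3′ on the gene's strand). Capitals mark the RUNX core motif TGTGGT or its reverse complement ACCACA. Each of the 2 genes has 2 starts in the RefSeq table. Zbtb7b lies on the minus strand of chromosome 3 (89377644 to 89394776), and its upstream window is chr3:89393329-89393628 and its downstream window chr3:89387622-89387921. Runx3 lies on the plus strand of chromosome 4 (135120652 to 135177990), with the upstream window at chr4:135120395-135120694 and the downstream one, inside the gene, at chr4:135152295-135152594.
Zbtb7b upstream: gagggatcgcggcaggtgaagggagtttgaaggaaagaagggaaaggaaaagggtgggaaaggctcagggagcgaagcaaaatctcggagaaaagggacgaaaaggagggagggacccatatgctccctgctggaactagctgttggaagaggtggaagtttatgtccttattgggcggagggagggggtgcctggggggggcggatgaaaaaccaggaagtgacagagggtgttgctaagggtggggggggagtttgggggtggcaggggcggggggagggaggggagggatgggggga
Zbtb7b downstream: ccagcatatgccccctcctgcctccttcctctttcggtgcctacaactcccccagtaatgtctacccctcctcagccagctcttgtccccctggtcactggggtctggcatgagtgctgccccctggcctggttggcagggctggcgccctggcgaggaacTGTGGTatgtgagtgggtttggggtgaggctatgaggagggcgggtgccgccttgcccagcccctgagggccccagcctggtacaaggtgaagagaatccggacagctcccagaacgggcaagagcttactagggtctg
Runx3 upstream: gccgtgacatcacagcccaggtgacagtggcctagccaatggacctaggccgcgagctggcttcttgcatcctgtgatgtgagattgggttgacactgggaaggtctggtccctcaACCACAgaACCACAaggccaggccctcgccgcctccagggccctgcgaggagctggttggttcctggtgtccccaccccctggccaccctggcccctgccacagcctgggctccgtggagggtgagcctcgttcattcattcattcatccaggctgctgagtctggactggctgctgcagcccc
Runx3 downstream: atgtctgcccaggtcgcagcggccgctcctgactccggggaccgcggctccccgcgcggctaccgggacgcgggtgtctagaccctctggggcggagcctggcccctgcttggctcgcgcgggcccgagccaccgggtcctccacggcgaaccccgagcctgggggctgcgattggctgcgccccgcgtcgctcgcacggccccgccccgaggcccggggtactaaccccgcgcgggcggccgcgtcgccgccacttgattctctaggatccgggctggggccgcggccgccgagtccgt
The motif was found once in the downstream window of Zbtb7b and 2 times, 2 bases apart and both on the reverse strand, in the upstream window of Runx3. In all, 3 of the 10 windows of 7 members held it, the remaining one being the upstream start of Runx1 with 2 matches, and 16.8% of all 32851 windows of that length in the table held it. These are matches of letters and not measured binding sites.

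The comparison of CD4+ with CD8+ T cells asked which genes separate the 2 sorted populations. Of the 8 members, 7 had a mean above 2 normalized counts over the 21 samples and were tested, and 4 passed at an adjusted p under 0.05 (6 at an unadjusted p under 0.05). Zbtb7b (mean 11.6 in CD4+ and 0.0931 in CD8+ cells) and Eomes (0.855 and 3.84) cleared that filter only through 1 population. The count that passed is therefore not free of the difference tested. Zbtb7b and Runx1 were higher in CD4+ cells, and Runx3 and Eomes were higher in CD8+ cells. Gata3, Tox and Bcl11b did not pass. Over all 7938 genes tested, 4.40% passed (2.33% higher and 2.07% lower in CD4+ cells), and 14.8% had an unadjusted p under 0.05. The median log2 difference was 0.44 over the 7 tested members and -0.01 over all genes.

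Zbtb7b had the largest fitted log2 difference between the populations among the 7 tested members. In CD4+ EE samples its normalized count was lowest at 5.34, had a median of 7.68 and was highest at 21.2. The 5 CD4+ SE samples had 1.03 (replicate 1), 9.15, 16.5, 14.2 and 20.3. All 6 CD8+ EE samples were at 0, as were 3 of the 4 CD8+ SE samples, and the fourth had 0.931, which is 1 molecule. Every CD4+ sample thus lay above every CD8+ sample, although the lowest CD4+ sample also held only 1 molecule. The groups ordered as CD4+ SE (12.2 ± 7.44, SD, n = 5), CD4+ EE (11.1 ± 6.48, n = 6), CD8+ SE (0.233 ± 0.466, n = 4) and CD8+ EE (0, n = 6), and neighbours within a population lay within their spread.

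On the log2(normalized count + 1) scale Zbtb7b was higher in CD4+ cells by 3.28 (SE 0.37, adjusted p = 1.57e-10, limma). This scale understates the change of a gene near 0. Counted directly, there were 127 molecules among 1874828 in CD4+ samples and 1 among 1940472 in CD8+ samples, a ratio of 131 with a 95% counting interval (exact binomial) of 23.2 to 5232. In EE mice, 65 molecules stood against 0 of 1169166, a count of 0 that allows up to 3 molecules over the group. The exact binomial 95% lower limit of that ratio, over molecules pooled from the samples, was 20.1, and the ratio was 25.5 against the floor of 3 molecules. In SE mice, 62 molecules stood against 1, a ratio of 54.3 (9.39 to 2178). Against the same floor of 3 molecules the ratio would be 43.8 over all samples and 18.1 in SE mice. Such intervals and limits cover counting error only, and the variance of Zbtb7b between CD4+ EE samples was 3.73 times that of counting. In sorted pools, fewer expressing cells and less RNA per expressing cell cannot be told apart.

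B-cell RNA was also higher in most of the CD4+ samples. The summed B-cell markers ran from 36.0 to 365 in CD4+ samples and from 34.8 to 106 in CD8+ samples, where Ms4a1 was at 0. Much of this difference was MHC class II RNA: Cd74 was 58.9 to 189 in the CD4+ samples other than SE replicate 1 and 0 to 34.4 in CD8+ samples, whereas Ighm was 27.9 to 53.9 and 28.0 to 51.5. CD4+ SE replicate 1, the sample with the fewest Zbtb7b molecules, had 10.3 for Cd74, while its Cd4 (54.6), Cd40lg (24.7) and Cd5 (85.5) lay within the range of the other CD4+ samples. In that sample Runx3 was 9.27, within the 2.52 to 9.65 of the other CD4+ samples.

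Over all 21 samples the genes whose log2 levels were most like that of Zbtb7b were the MHC class II genes H2-Ab1 (Pearson r = 0.94) and H2-Eb1 (r = 0.92) and then Cd4 (r = 0.91), values over samples that share a population. After each group's mean was subtracted, r was 0.65 for H2-Ab1, 0.50 for H2-Eb1 and 0.05 for Cd4 over the 21 samples, CD4+ SE replicate 1 included. Among the 10 CD4+ samples other than SE replicate 1, Zbtb7b and the B-cell sum had r = -0.02 (permutation p = 0.958) and Spearman's rho = 0.13 (permutation p = 0.727), and r changed to 0.29 (n = 8) once the 2 samples with the most extreme B-cell sums were dropped. No other correlation with the B-cell sum was computed. Without CD4+ SE replicate 1 the fitted difference of Zbtb7b between the populations was 3.58 (SE 0.34, adjusted p = 1.26e-12, limma). With log2 of the B-cell sum as a term in the fit, an alternative chosen after seeing the data, it was 1.90 (SE 0.63, 95% confidence interval 0.64 to 3.16, unadjusted p = 0.00364, adjusted p = 0.153, limma), and 90 genes passed in place of 349. In that same fit Cd4 (5.51, adjusted p = 2.81e-16), Cd40lg (3.99, adjusted p = 1.14e-07) and Cd8b1 (-5.65, adjusted p = 1.16e-23) passed and no member did. Standard errors rose in it, for Cd4 from 0.23 to 0.42 and for Runx3 from 0.23 to 0.42. The sum itself differed between the populations, so the fit cannot fully tell the 2 apart.

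**Figure D1:**
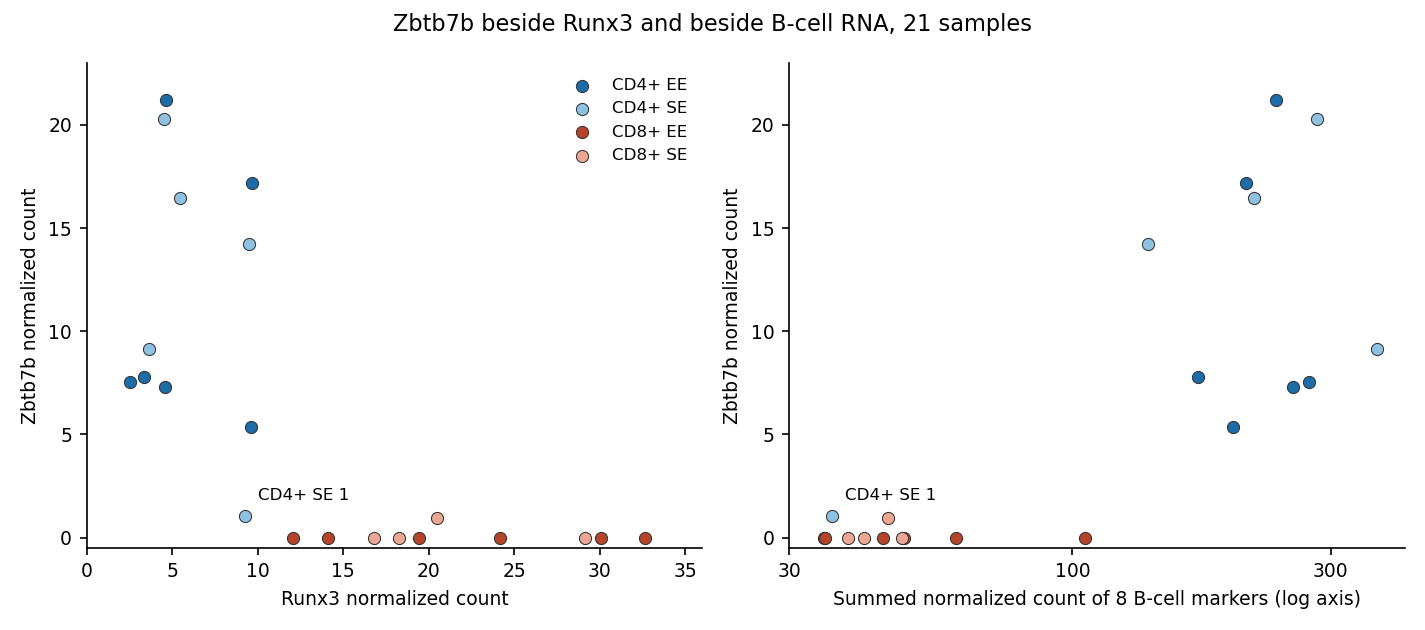
Normalized count of Zbtb7b in each of the 21 samples against that of Runx3 (left, linear axes) and against the summed normalized count of 8 B-cell markers (right, log x axis), with 1 point for each sample, coloured by group. The CD8+ samples lie at 0 to 0.931 with Runx3 at 12.1 or more, and CD4+ SE replicate 1 (labelled) lies among them on the right but not on the left.

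Runx3 showed the opposite pattern. Its normalized count was 2.52, 4.59 and 9.65 (lowest, median and highest) in the 6 CD4+ EE samples and 9.27, 3.66, 5.49, 9.5 and 4.5 in the CD4+ SE samples. It reached 12.1, 21.8 and 32.6 in CD8+ EE samples and 29.1, 20.5, 16.8 and 18.3 in CD8+ SE samples. All 10 CD8+ samples were above all 11 CD4+ samples, and Runx3 was present in every CD4+ sample. The 4 groups ordered as CD8+ EE (22.1 ± 8.36), CD8+ SE (21.2 ± 5.52), CD4+ SE (6.48 ± 2.73) and CD4+ EE (5.72 ± 3.14), with neighbours within a population inside their spread. The fitted log2 difference, CD4+ minus CD8+, was -1.72 (SE 0.23, adjusted p = 7.24e-08, limma). In normalized count + 1 this corresponds to 0.304 of the CD8+ value (95% confidence interval 0.22 to 0.42). It was -1.31 (SE 0.42, adjusted p = 0.133) with the B-cell sum in the fit.

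Among all genes tested, 69 (0.869%) had populations that did not overlap, 0.34% higher in CD4+ and 0.529% higher in CD8+ cells, and Zbtb7b and Runx3 were the 2 members in this set. In counted molecules the lowest CD4+ and the highest CD8+ sample of Zbtb7b were equal, with 1 molecule each (1.03 and 0.931 normalized). The genes most like Runx3 over the 21 samples were Ccr9, a chemokine receptor (r = 0.91), and Cd8a (r = 0.87). With each group's mean subtracted, r was 0.63 and 0.24. Taken as a share of the molecules of Zbtb7b and Runx3 together, which serves only to compare samples, Zbtb7b made up 35.7 to 82.1% in CD4+ EE samples, 10 to 81.8% in CD4+ SE samples, 0% in CD8+ EE samples and at most 4.35% in CD8+ SE samples. The lowest CD4+ share was that of SE replicate 1.

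Runx1, the relative of Runx3 that represses Cd4 in earlier thymocytes, was the other way round from Runx3. CD4+ EE samples had 5.34, 10.7 and 17.2 (lowest, median and highest), and the CD4+ SE samples had 12.4, 16.5, 19.2, 11.4 and 18. The CD8+ EE samples ran from 0.94 over a median of 5 to 7.91, and the CD8+ SE samples had 9.42, 7.45, 3.53 and 6.73. The populations overlapped, with 8 of 11 CD4+ samples above every CD8+ sample. They did not overlap among SE mice (5 against 4 samples), nor did those of 3.64% of all genes. Runx1 was higher in CD4+ cells by 1.11 on the log2 scale (SE 0.26, adjusted p = 0.00291, limma). In normalized count + 1 this is 2.16-fold, with a 95% confidence interval of 1.51 to 3.1. With the B-cell sum in the fit the log2 difference was 0.80 (SE 0.47, adjusted p = 0.644). Runx3 made up 18.2 to 64.3% of the Runx1 and Runx3 molecules in CD4+ samples and 68.4 to 93.8% in CD8+ samples, again a share used only to compare samples. The closest genes to Runx1 in pattern were Btla (r = 0.81), an inhibitory receptor, Rb1 (r = 0.78) and Itgb1 (r = 0.76), and r within groups was 0.54, 0.54 and 0.50.

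Of the 2 T-box factors, Eomes differed between the populations and Tbx21 was under the filter of the main fit. Eomes was detected in 6 of 11 CD4+ samples, at 2.52 or less, and in all 10 CD8+ samples. The CD8+ EE samples had 1.72, 4.75 and 7.12 (lowest, median and highest) and the CD8+ SE samples 6, 0.931, 1.77 and 2.88. The ranges overlapped, and 6 of the 10 CD8+ samples were above every CD4+ sample. In total, 9 molecules were counted in CD4+ and 43 in CD8+ samples, so Eomes had few molecules behind it. The log2 difference was -1.34 (SE 0.38, adjusted p = 0.0225, limma). It did not pass without CD8+ SE replicate 1 (-1.17, adjusted p = 0.0966) or with the B-cell sum in the fit (-0.75, adjusted p = 0.818). Natural killer cells also express Eomes, and the sort gate required CD3, which they lack. Their markers Tyrobp, Fcer1g and Klrb1c, the 3 of 5 listed that are in the table, summed to 0 to 10.1 in CD4+ and 0 to 1.77 in CD8+ samples, with Fcer1g at 0 in all CD8+ samples, and their part in the Eomes values was not tested. Cd226, an activating receptor (r = 0.78), and Dapl1 (r = 0.76) were most like Eomes, with r = 0.44 and 0.50 within groups.

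Tbx21 had 9 molecules in 4 of the 11 CD4+ samples and 12 in 5 of the 10 CD8+ samples. The highest CD4+ sample was EE replicate 4 at 5.57 and the highest CD8+ sample was EE replicate 6, each with 5 molecules, and the other values were 2.15 or less. Its mean was 0.867 ± 1.7 in CD4+ and 1.07 ± 1.42 in CD8+ cells (SD), and a permutation test of the 2 means gave p = 0.771 (two-sided). A difference was not detectable at this depth.

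Gata3, which is needed for CD4 commitment and for type 2 helper cells, had a mean of 6.26 ± 3.75 in CD4+ samples (range 0.914 to 13.9) and 3.47 ± 2.68 in CD8+ samples (range 0 to 8.37). The ranges overlapped over most of their length. The log2 difference was 0.82 (95% confidence interval 0.12 to 1.51, unadjusted p = 0.0222, adjusted p = 0.223, limma). It passed only when the 5 CD4+ samples with both Cd8a and Cd8b1 were left out (1.44, adjusted p = 0.0292), which is what the study's purity rule asks for, although this alternative was added after seeing the data. Tox, an HMG-box factor required early in CD4 lineage development, was 14.3 ± 5.73 in CD4+ and 9.91 ± 2.68 in CD8+ samples, with a log2 difference of 0.44 (95% confidence interval 0.0044 to 0.87, adjusted p = 0.329). Its highest sample was CD4+ EE replicate 1 at 27.7. Bcl11b was 43.9 ± 11 and 37.5 ± 7.83, with a difference of 0.19 (95% confidence interval -0.10 to 0.48, adjusted p = 0.604). Leaving out 1 sample in turn gave 0.13 to 0.31 for Bcl11b. With the B-cell sum in the fit, Bcl11b was 0.64 (95% confidence interval 0.14 to 1.15, unadjusted p = 0.0133, adjusted p = 0.303, limma), Tox was 0.76 (-0.03 to 1.54, adjusted p = 0.563) and Gata3 was 0.80 (-0.47 to 2.06, adjusted p = 0.77), so for Bcl11b and Tox the value moved by more than 1.5 times.

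**Figure D2:**
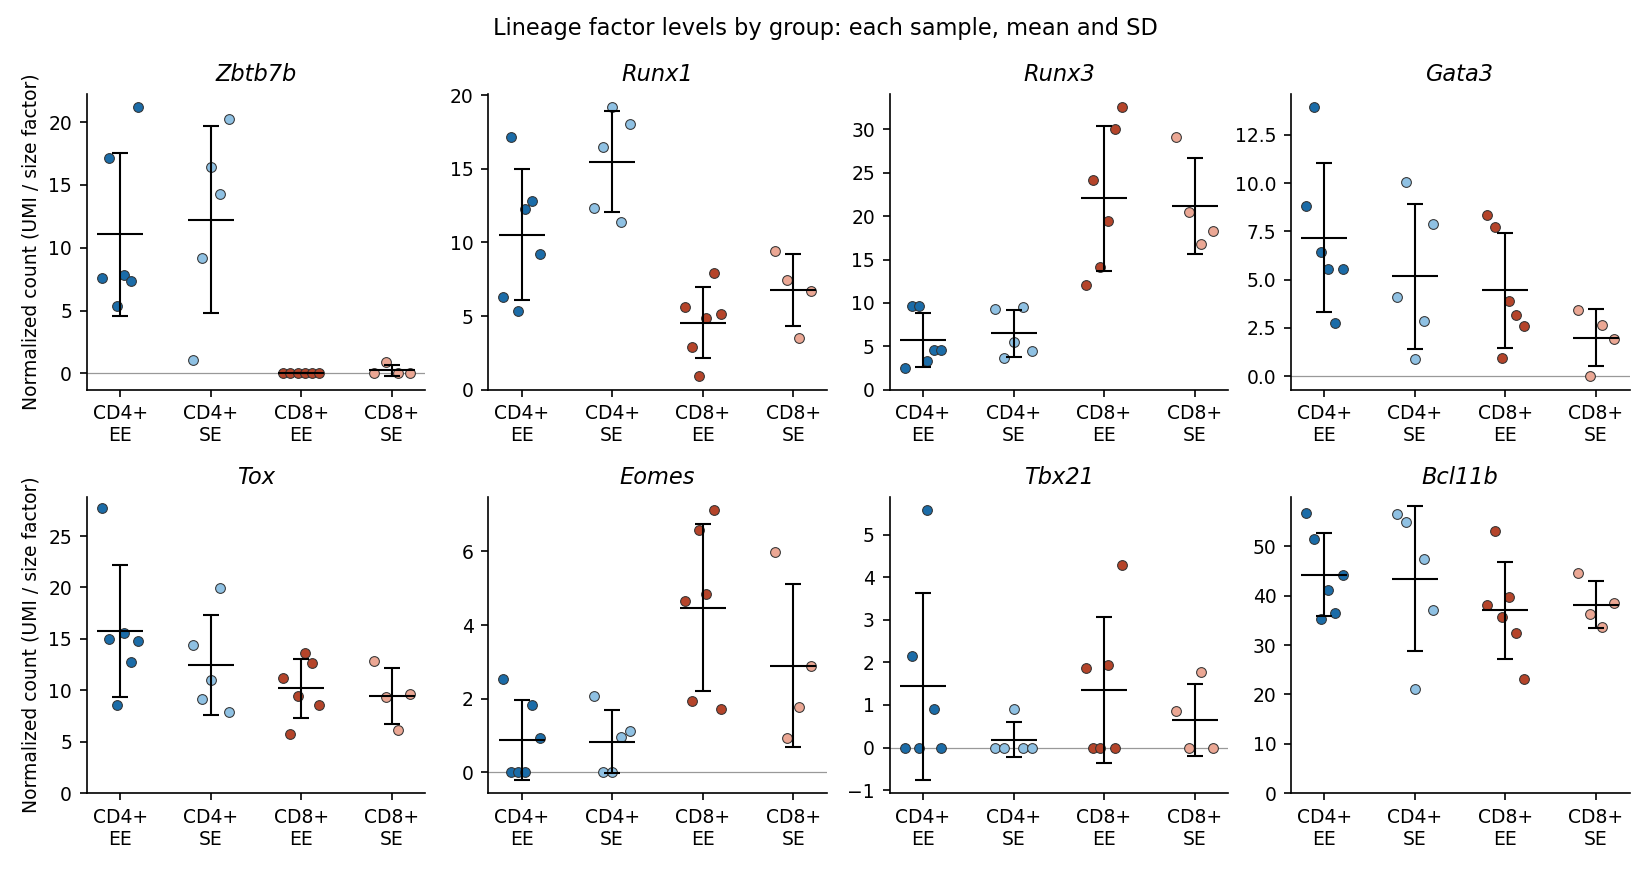
Normalized count (molecules divided by the size factor, linear axes) of the 8 members in the 4 groups, with 1 point for each sample and bars for the mean and SD (n = 6, 5, 6 and 4). Zbtb7b and Runx3 separate the CD4+ from the CD8+ samples without overlap, and no member separates EE from SE samples in either population. For Zbtb7b the lowest CD4+ value (1.03) and the highest CD8+ value (0.931) are each 1 molecule.

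The 9 mice that by their labels gave both populations allowed each member to be compared within an animal. Zbtb7b was higher in the CD4+ sample of all 9 mice, by a mean of 3.27 ± 1.07 (SD) on the log2 scale, and Runx1 by 1.14 ± 0.72 in all 9. Runx3 was lower in the CD4+ sample of all 9 mice (mean difference -1.80 ± 0.65), as was Eomes (-1.47 ± 0.81). For each of these 4 genes the exact sign-flip permutation test gave p = 0.00391, the smallest that 9 pairs can give. Gata3 was higher in the CD4+ sample in 8 of 9 mice (0.81 ± 0.75, exact permutation p = 0.0117), Tox in 7 (0.41 ± 0.56, exact permutation p = 0.0664), Bcl11b in 6 (0.29 ± 0.36, exact permutation p = 0.0469) and Tbx21 in 3, with 2 ties (exact permutation p = 0.562). These p-values are two-sided and not adjusted for the 8 genes. CD4+ SE replicate 1 gave the smallest difference of Zbtb7b, 1.02.

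**Figure D3:**
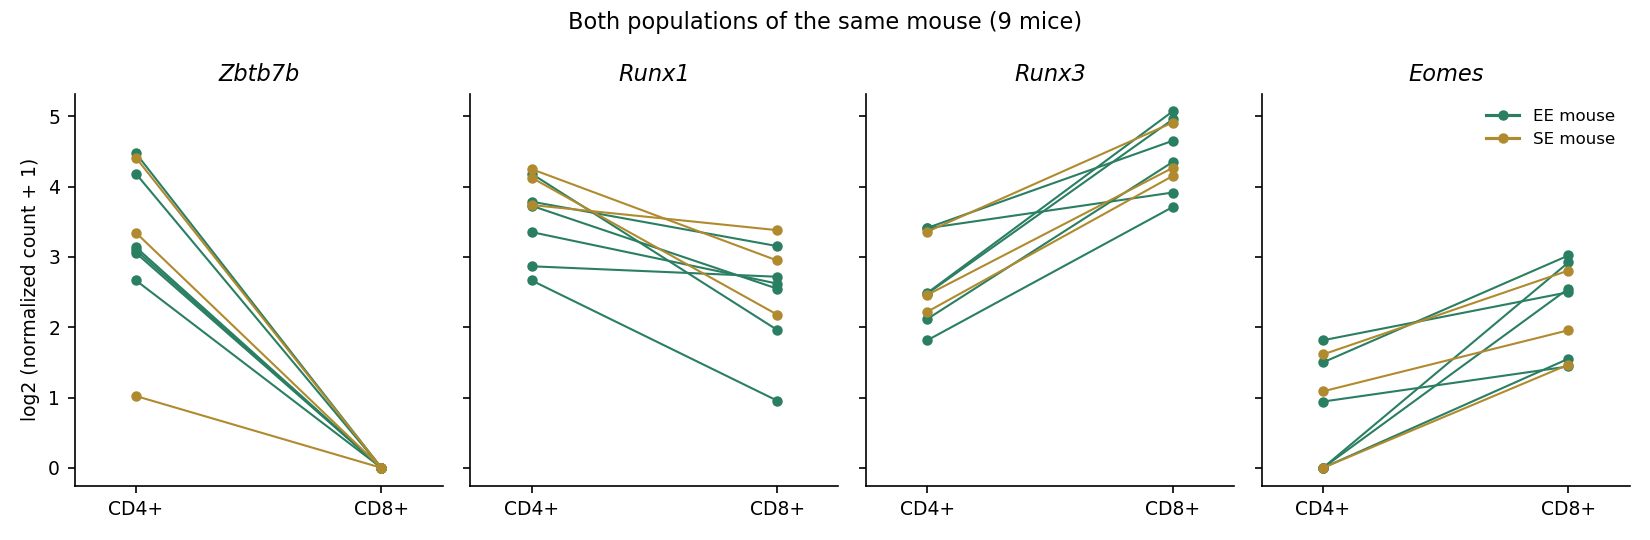
log2(normalized count + 1) of Zbtb7b, Runx1, Runx3 and Eomes in the CD4+ and CD8+ samples of the same mouse, with 1 line for each of the 9 mice (green EE, ochre SE). All 9 lines fall from CD4+ to CD8+ for Zbtb7b and Runx1 and rise for Runx3 and Eomes.

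Within each environment the same comparison had fewer samples. In EE mice 2 of the 7 tested members passed, Zbtb7b (3.44, adjusted p = 2.24e-07) and Runx3 (-1.82, adjusted p = 2e-05), and 4 had an unadjusted p under 0.05. Of all genes, 2.66% passed in EE mice (1.40% higher and 1.26% lower in CD4+ cells), and 13.0% had an unadjusted p under 0.05. In SE mice Zbtb7b (3.13, adjusted p = 9.58e-05) and Runx3 (-1.61, adjusted p = 0.00281) passed, and 3 members had an unadjusted p under 0.05. Of all genes, 1.51% passed in SE mice (0.705% higher and 0.806% lower), and 9.73% had an unadjusted p under 0.05. In SE, a fit that kept the mouse as a block over the 3 mice with both populations gave 2.93 for Zbtb7b (adjusted p = 0.0876), which did not pass. With the B-cell sum in the limma fit neither gene passed. In EE mice Zbtb7b was then 1.98 (adjusted p = 0.265) and Runx3 -1.39 (adjusted p = 0.229). In SE mice they were 1.83 (adjusted p = 0.416) and -1.22 (adjusted p = 0.403). Runx1 was higher in CD4+ cells by 1.10 in EE and 1.12 in SE mice (adjusted p = 0.0605 and 0.207), and Eomes differed by -1.62 and -1.06 (adjusted p = 0.0589 and 0.572). In EE mice Runx1 passed on leaving out CD4+ EE replicate 1 or 3 or CD8+ EE replicate 5 (1.22 to 1.27), and Eomes on leaving out CD4+ EE replicate 1 or 5 or CD8+ EE replicate 2 or 6 (-1.84 to -1.78). Eomes also passed in EE with sample weights (-1.67, adjusted p = 0.0391) and without the 2 CD8+ samples rich in red-cell RNA (-1.80, adjusted p = 0.0465). The test of whether the difference between populations changed with housing, an interaction term, passed for 0 of the 7 members and 0.00% of all genes (393 genes, or 4.95%, and 0 members at an unadjusted p under 0.05). Its values ran from -0.56 for Eomes (95% confidence interval -2.08 to 0.96) to 0.31 for Zbtb7b (-1.15 to 1.77).

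EE was compared with SE within each population to ask whether housing changes spleen T cells. None of the members passed: 0 of 6 tested in CD4+ cells, beside 0.0126% of all genes (1 gene, and 462 or 5.82% at an unadjusted p under 0.05), and 0 of 6 in CD8+ cells, beside 0.00% (413 or 5.27% at an unadjusted p under 0.05). In both populations 0 members had an unadjusted p under 0.05 by limma, and edgeR and DESeq2 called 0 members. No member had groups that did not overlap, beside 0.453% of genes in CD4+ and 1.06% in CD8+ cells.

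For Zbtb7b the EE minus SE difference in CD4+ cells was 0.07 on the log2 scale (95% confidence interval -0.74 to 0.88). Without CD4+ SE replicate 1 it was -0.52 (SE 0.34, adjusted p = 0.874), and edgeR and DESeq2 on all 11 samples also gave small negative values, -0.12 and -0.13, so no direction can be given. Runx1 was the member with the lowest unadjusted p in CD4+ cells, with 10.5 ± 4.44 in EE and 15.5 ± 3.45 in SE samples and a difference of -0.59 (95% confidence interval -1.19 to 0.02, unadjusted p = 0.0583, adjusted p = 0.835, limma). In CD8+ cells Runx1 was 4.56 ± 2.39 and 6.78 ± 2.45, a difference of -0.57 (95% confidence interval -1.43 to 0.29, adjusted p = 0.963). Gata3 was 7.17 ± 3.85 in EE and 5.17 ± 3.74 in SE CD4+ samples, and 4.44 ± 2.96 and 2 ± 1.47 in CD8+ samples, with differences of 0.53 (-0.35 to 1.41) and 0.86 (-0.20 to 1.91). Without the 5 CD4+ samples with both Cd8a and Cd8b1, the CD4+ difference of Gata3 was -0.11, so no direction can be given for it.

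Runx3 differed by -0.21 (-1.03 to 0.62) in CD4+ and 0.00 (-0.50 to 0.51) in CD8+ cells. Tox differed by 0.30 (-0.29 to 0.89) and 0.09 (-0.55 to 0.73), and Bcl11b by 0.09 (-0.32 to 0.49) and -0.08 (-0.46 to 0.31). Eomes differed by 0.54 (-0.43 to 1.50) in CD8+ cells. Among the members below the filter, Tbx21 had 8 molecules in CD4+ EE and 1 in CD4+ SE samples (exact permutation p = 0.242, two-sided), and 9 and 3 in CD8+ cells (exact permutation p = 0.524). Eomes in CD4+ cells (5 and 4 molecules, exact permutation p = 1) and Zbtb7b in CD8+ cells (0 and 1 molecule, exact permutation p = 0.8) were also under the filter of the main fit.

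**Figure D4:**
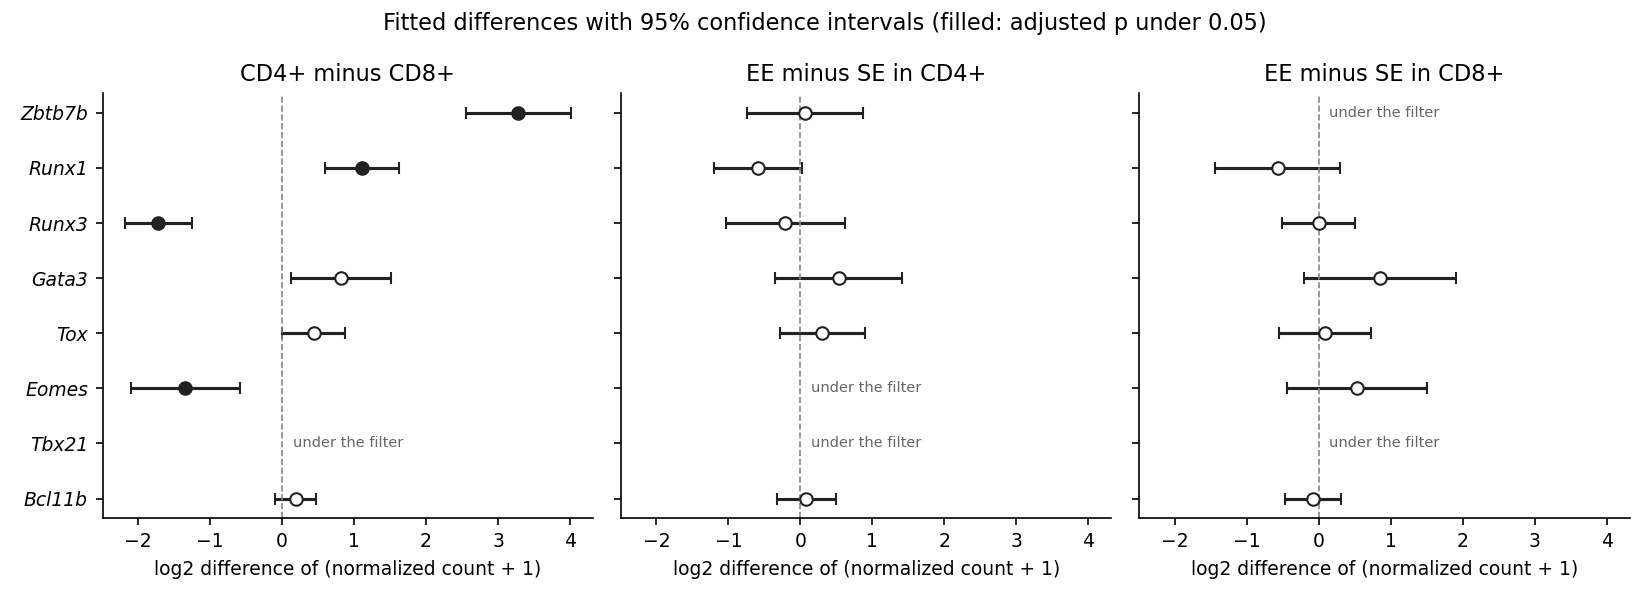
Fitted log2 differences of normalized count + 1 with 95% confidence intervals for CD4+ minus CD8+ (21 samples), EE minus SE in CD4+ cells (11 samples) and EE minus SE in CD8+ cells (10 samples). Filled points passed at an adjusted p under 0.05. These are Zbtb7b, Runx1, Runx3 and Eomes in the first panel and none in the others.

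Other genes of the same programs were followed in 3 lists. Of 24 partners and regulators of these factors, among them Cbfb (the subunit that Runx proteins need to bind DNA), Patz1, Tcf7, Lef1 and Satb1, 21 were tested and 0 passed between CD4+ and CD8+ cells by limma (2 at an unadjusted p under 0.05), with a median log2 difference of 0.01. Cbfb was 8.37 ± 5.95 in CD4+ and 10 ± 3.12 in CD8+ samples. Tcf7, which supports Zbtb7b expression in the thymus, was 56.1 ± 9.92 and 56.4 ± 10.3.

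Helper genes passed as higher in CD4+ cells in 8 of 11 tested and as lower in 0, beside 2.33% and 2.07% of all genes. The list holds Cd4, on which the cells were sorted, and without it 7 of 10 passed (median 1.17). Among the genes that passed, Cd4, Cd40lg, Ctla4, Maf and St8sia6 cleared the filter only through CD4+ cells, with CD8+ means of 0.181 to 0.374. Cd40lg, the ligand that helper cells show to B cells, was 23 ± 6.24 in CD4+ and 0.258 ± 0.417 in CD8+ samples (adjusted p = 2.25e-19, limma), and Maf was 10.4 ± 6.73 and 0.268 ± 0.432 (2.98 on the log2 scale, adjusted p = 2.48e-09). Cd5 (74.3 ± 12 and 32.3 ± 5.96) and Cd28 (40 ± 5.59 and 18.7 ± 4.81) passed with smaller differences, and Icos, Tnfrsf4 and Ikzf2 did not pass (adjusted p = 0.126, 0.197 and 0.0661). The median over the 11 genes, Cd4 included, was 1.202.

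Cytotoxic genes were lower in CD4+ cells in 9 of 12 tested, beside 2.07% of all genes. The sort also fixed Cd8a and Cd8b1 in this list, and without them 7 of 10 passed (median -2.05). Among the genes that passed, Cd8a, Crtam and Itgae cleared the filter only through CD8+ cells, with CD4+ means of 0.382 to 0.784. Nkg7, a granule protein, was 14.7 ± 9.03 in CD4+ and 150 ± 13.6 in CD8+ samples (-3.59, adjusted p = 1.85e-21), and Itgae, a gene that Runx3 activates, was 0.382 ± 0.538 and 13.1 ± 5.75 (-3.38, adjusted p = 2.7e-12). Prf1, which encodes perforin and is a target of Eomes, was 2.06 ± 1.26 and 8.85 ± 4.44 (-1.63, adjusted p = 0.000463). Ccl5, Il2rb and Cxcr3 did not pass (adjusted p = 0.74, 0.0968 and 0.302), and the mean of Cxcr3 lay on the other side, at 7.76 ± 6.13 in CD4+ and 3.54 ± 1.69 in CD8+ samples. Of the 19 genes of the list in the table, those under the filter were not tested. Among them Fasl (means 2.305 in CD4+ and 0.355 in CD8+), Gzmk (1.245 and 0.0971) and Klrk1 (0.466 and 0.377) were also higher in CD4+ samples. Gzma, Gzmb, Gzmm and Xcl1 were lower in them. The median over the 12 tested genes, Cd8a and Cd8b1 included, was -2.36. Between EE and SE, 0 genes of the 3 lists passed in either population.

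The annotation places genes on the opposite strand of Zbtb7b, Runx1, Runx3, Gata3, Tox and Eomes. Gata3 is also overlapped on its own strand by 9230102O04Rik, a gene that counting by strand would not separate from it. Of these overlapping genes, only the antisense gene of Zbtb7b, Gm15417, is in the table, with a mean of 0.633 normalized counts. Whether counting used strand is not given in the sources used here, so reads of Zbtb7b and Gm15417 may not be fully separated.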

How the data were processed

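RNA of CD4+ and CD8+ T cells sorted from mouse spleen was tagged with UMIs by template switching. The submitters' processing notes name cutadapt, STAR 2.4.0a, DESeq2 and mm10/GRCm38, and the study's methods describe UMI counting with the Drop-seq protocol on Ensembl gene models, without naming the spleen libraries there. The deposited values are a normalized signal, counts per gene that the authors divided by a DESeq2 size factor, and 100% of them came back as whole molecules within 1e-05. limma 3.58.1 (trend) was fitted to log2(value + 1), keeping genes whose mean exceeded 2, with 4 group means over 21 samples (population contrasts, interaction) or 2 over 11 or 10 samples (EE vs. SE), and Benjamini-Hochberg adjustment over all genes. edgeR 4.0.16 and DESeq2 1.42.0 were run on the recovered molecules as alternatives and called 365 and 324 genes between CD4+ and CD8+ cells. Members under the filter and paired differences were tested by permutation (exact or 100000 resamples). The fits were tested on simulated counts. Some values of single markers are not reported here. Members, lists and tests were chosen with earlier results of these data known. The genes named as most alike are the 3 with the highest Pearson correlation with each member. Depth was 145546 to 221454 molecules, so genes near 1 molecule have large counting error. CD4+ and CD8+ samples with the same environment and animal number in their labels were taken as the same mouse (9 pairs, mean correlation of deviations 0.01, range -0.01 to 0.04). Samples of different mice that share a number gave -0.01 to 0.03, so the values themselves show little sign of the pairing. Mice of each environment shared a cage, so p-values measure the spread between cage mates.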

Additional observations from a re-analysis of the deposited data

Results flagged for a closer look

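In 3 of the 31 sets of values compared (a member in a group), 1 sample lay far from the others of its group. About 1.55 would be flagged by chance if the values were continuous. A set with 1 molecule in 1 sample and 0 in the rest is always flagged, as for Zbtb7b and Tbx21, so that figure does not apply to them. Zbtb7b was 0.931 (1 molecule) in CD8+ SE replicate 2 and 0 in the other 3 samples. Tox was 27.7 in CD4+ EE replicate 1 (22 molecules) against 8.55 to 15.6 in the other 5 samples. Tbx21 was 0.914 (1 molecule) in CD4+ SE replicate 4 and 0 in the other 4 samples. Leaving out each sample in turn, CD8+ SE replicate 2 among them, gave Zbtb7b 3.15 to 3.58 for CD4+ minus CD8+ and 2.87 to 3.72 within SE. The EE minus SE difference of Tox in CD4+ cells was lowest, 0.13, without CD4+ EE replicate 1. The part of the single Tbx21 molecule was not tested.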

How the results depend on the processing

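Depth limits Eomes, Tbx21 and Gata3 most, with 52, 21 and 104 molecules over all 21 samples. On leaving out 1 sample in turn, 3 to 4 members passed between all CD4+ and CD8+ samples (Eomes was lost without CD8+ SE replicate 1), 2 to 4 in EE (4 without CD4+ EE replicate 1), 2 in SE and 0 for EE vs. SE in either population and for the interaction. A mean filter above 10 left 3 members to test and 1 passing (Runx3) in all, EE and SE mice alike. Adding the B-cell sum to the fit left 0 in each of the 3, and the cause was not tested. The sum itself differed between the populations, and standard errors rose with it in the fit, from 0.23 to 0.42 for Runx3 over all samples. The mouse as a replicate block left 1 in SE (Runx3), and the block changed no other call of a member. EE and SE samples that share a number come from different mice (correlations of deviations -0.01 to 0.03 over 9 pairs), and the block by number left 0 members. Of 987 values of single members recomputed, 918 kept direction and side of the threshold, 10 lost it, 10 gained it and 49 changed sign, none of those past the threshold in the main fit. Sign changes in EE vs. SE in CD4+ cells were Zbtb7b at -0.12 (edgeR), -0.13 (DESeq2), -0.081 (animal number as block), -0.31 (B-cell sum) and, without the 5 CD4+ samples with both Cd8a and Cd8b1, Zbtb7b at -0.61, Runx3 at 0.35 and Gata3 at -0.11. The same 5 samples left out gave Tox -0.11 for CD4+ minus CD8+ in SE and, for the interaction, Zbtb7b -0.37 and Runx3 0.34. In CD8+ cells EE vs. SE changed sign for Runx3 at -0.00856 (same total), -0.00289 (sample weights), -0.10 (block), -0.091 (B-cell sum) and -0.22 (without the 2 samples with most red-cell RNA), for Tox at -0.10 (block) and -0.045 (red-cell RNA) and for Bcl11b at 0.063 (B-cell sum). The interaction of Runx1 changed sign at 0.030 (pseudocount 0.5), 0.00474 (sample weights), 0.000961 (DESeq2) and 0.28 (red-cell RNA), and that of Runx3 at 0.012 (red-cell RNA). Leaving out 1 sample in turn gave Bcl11b -0.00581 to 0.34 in SE for CD4+ minus CD8+. For EE vs. SE it gave Zbtb7b -0.52 to 0.33 and Bcl11b -0.15 to 0.20 in CD4+ cells, and Runx3 -0.12 to 0.16, Bcl11b -0.19 to 0.046 and Tox -0.081 to 0.24 in CD8+ cells. Without a change of sign, EE vs. SE moved by over 1.5 times for Gata3 (0.17 to 0.81), Tox (0.13 to 0.48) and Runx3 (-0.36 to -0.045) in CD4+ cells, and Eomes (0.25 to 0.87), Gata3 (0.40 to 1.12) and Runx1 (-0.81 to -0.30) in CD8+ cells. For the interaction it gave Runx1 -0.29 to 0.22, Zbtb7b -0.28 to 0.57, Bcl11b -0.071 to 0.28 and Gata3 -0.69 to 0.14, and with no change of sign Eomes -0.90 to -0.28, Runx3 -0.37 to -0.049 and Tox 0.044 to 0.39. Over all genes, CD4+ against CD8+ called 349, and 216 with a mean above 10 and 90 with the B-cell sum. In EE it called 211, and 53 with the B-cell sum. In SE it called 120, and 76 with a mean above 10, 61 with the block and 51 with the B-cell sum. EE vs. SE called 1 gene in CD4+ cells (0 to 3 over the alternatives) and 0 in CD8+ cells (3 without a filter, 2 with the block by number). The B-cell and red-cell alternatives and the 5 samples were chosen after seeing the data.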
